A study of Zea mays with 12 samples.

Results

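The actin genes act1 and act2 and the actin-depolymerizing factor gene ADF3 were followed in embryos of imbibed maize (Zea mays) seeds. They were taken by gene name from a deposited table of 99 genes, in which each has 1 entry, and all 3 were among the 76 genes that passed the filter on low values. The embryos came from Mo17, an inbred line labelled as sensitive to low temperature, and from B73, an inbred line labelled as resistant. Seeds were at the germination stage and were sampled at 2 h, either at 10 °C (low temperature) or at 25 °C (the normal condition). The 4 groups were thus Mo17 at 10 °C, Mo17 at 25 °C, B73 at 10 °C and B73 at 25 °C, each with 3 libraries described as biological repeats. RNA came from whole embryos, so a lower share of a cell type and less RNA per cell cannot be told apart.

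Actin is the globular protein that polymerizes into actin filaments, which carry vesicle and organelle movement and shape the direction of growth in plant cells. Plants carry a family of actin genes whose proteins are very alike. Actin-depolymerizing factors, also called ADF or cofilin proteins, bind actin and sever and disassemble filaments, so that subunits are returned to the pool. In maize, ADF3 is known as the form of vegetative tissue, and adf1 and adf2 as forms of pollen.

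The deposited table describes act1 as actin-1, which lies on chromosome 8 at 102413768 to 102417536 on the minus strand. It describes act2 as actin-7, on the same chromosome and strand at 171775071 to 171778423, which is 69.4 Mb away. ADF3 lies on chromosome 1 at 298705823 to 298708006 on the plus strand. Starts and ends are those of the table, in B73 RefGen_v4, and chromosome numbers were matched through RefSeq. act1 and act2 each have 2 listed transcripts and ADF3 has 1. Levels are given in FPKM, a unit in which the authors divided fragments by the length of the gene and the size of the library. One unit of FPKM corresponded to 83.6 counts for act1, 78.4 for act2 and 163 for ADF3 in a library of mean depth, although the ADF3 gene spans 2184 bases against 3769 for act1. The length behind the ADF3 values is therefore unclear, and its level was not compared with that of the actins. The actins have nearly the same factor and were compared. Reads from near-identical actin genes could have been divided between them in the authors' counting, and other actin genes were not analysed here.

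The relative depth of the 12 libraries ran from 0.817 to 1.08. Over the 76 tested genes, B73 10 °C replicate 1 stood apart from its group, with Pearson correlations of 0.969 and 0.974 to the other libraries there, while those had 0.997 between them (on log2(FPKM + 1); genes are not independent replicates). For act1, act2 and ADF3, this library lay between the other libraries of its group. The tissue label can be looked at through few markers. The embryo form of the small subunit of ADP-glucose pyrophosphorylase, Agpsemzm, stood at 92.92 to 102.41 FPKM in the 6 Mo17 libraries and at 121.52 to 149.01 FPKM in the 6 B73 libraries. The starch branching enzyme gene ae1_1, a marker of endosperm, stood at 2.30 to 4.36 FPKM in Mo17 and at 0.33 to 0.70 FPKM in B73. The aleurone gene a2, of anthocyanin synthesis, did not exceed 0.06 FPKM in Mo17 or 0.02 FPKM in B73. Whether the aleurone of these lines expresses a2 was not tested, so this low level does not tell whether aleurone was present. An entry named ae1, annotated only as the ae1 protein precursor, was listed at 0 in every library, and other markers were not analysed here. Agpsemzm and ae1_1 thus moved with the line, and their part in the line differences below was not tested.

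act1 was the more abundant actin in every library, and it separated the lines. Mo17 embryos at 10 °C had 356.64, 311.23 and 332.56 FPKM of act1, and B73 embryos at 10 °C had 147.36, 146.10 and 152.78 FPKM. Mo17 embryos at 25 °C had 339.76, 328.14 and 324.17 FPKM, and B73 embryos at 25 °C had 152.57, 133.46 and 140.90 FPKM. The lowest of the 6 Mo17 libraries was thus 158.45 FPKM above the highest of the 6 B73 libraries, and the temperatures overlapped within each line. At 10 °C act1 was 2.24-fold higher in Mo17, with a log2 change of 1.16 and a 95% confidence interval of 1.0 to 1.33 (edgeR quasi-likelihood test, Benjamini-Hochberg adjusted p = 4.71e-07). At 25 °C it was 2.32-fold higher, with a log2 change of 1.22 and an interval of 1.05 to 1.38 (adjusted p = 3.86e-07, edgeR). Under the main library scaling, act1 had the smallest p of the 76 tested genes in each of these comparisons. By the size of the line difference averaged over the temperatures, act1 ranked 18 among them.

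act2 went the other way. It had 24.19, 26.76 and 28.19 FPKM in Mo17 embryos at 10 °C, against 38.85, 35.00 and 42.37 FPKM in B73 embryos at 10 °C. At 25 °C it had 34.17, 34.63 and 30.19 FPKM in Mo17 embryos and 38.83, 37.89 and 42.38 FPKM in B73 embryos. The Mo17 libraries lay below all B73 libraries at both temperatures, by 6.81 FPKM between the nearest libraries at 10 °C and by 3.26 FPKM at 25 °C. At 10 °C act2 was 1.47-fold lower in Mo17, with a log2 change of -0.55 and an interval of -0.79 to -0.32 (edgeR quasi-likelihood test, Benjamini-Hochberg adjusted p = 0.000917). At 25 °C it was 1.20-fold lower, with a log2 change of -0.27 and an interval of -0.50 to -0.03, and lay at the threshold (adjusted p = 0.0484, edgeR). This call at 25 °C was lost without any 1 of the 6 libraries of that temperature, and also without B73 10 °C replicate 3 or Mo17 10 °C replicate 2 or 3, at adjusted p of 0.0528 to 0.167 (edgeR). Quantile normalization ended the call at both temperatures, with -0.28 at 10 °C (adjusted p = 0.0875, limma) and a value turned to 0.090 at 25 °C. Over all alternatives the adjusted p at 25 °C ran from 0.000754 to 0.55 (edgeR, limma or DESeq2).

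ADF3 was higher in Mo17, by less than act1. Mo17 embryos at 10 °C had 80.12, 81.34 and 81.49 FPKM, and B73 embryos at 10 °C had 50.75, 55.84 and 50.34 FPKM. Mo17 embryos at 25 °C had 90.85, 81.94 and 87.54 FPKM, and B73 embryos at 25 °C had 50.35, 57.83 and 51.43 FPKM. All 6 Mo17 libraries were above all 6 B73 libraries, by 22.29 FPKM between the nearest. At 10 °C ADF3 was 1.55-fold higher in Mo17, with a log2 change of 0.63 and an interval of 0.46 to 0.80 (edgeR quasi-likelihood test, Benjamini-Hochberg adjusted p = 3.12e-05). At 25 °C it was 1.63-fold higher, with a log2 change of 0.71 and an interval of 0.54 to 0.88 (adjusted p = 1.25e-05, edgeR). act1 and ADF3 kept their sign and their call in the line comparison at each temperature under all 22 alternatives. Among these, leaving out a library of the other temperature left the log2 change nearly as it was and bore on the estimate of spread.

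**Figure D1:**
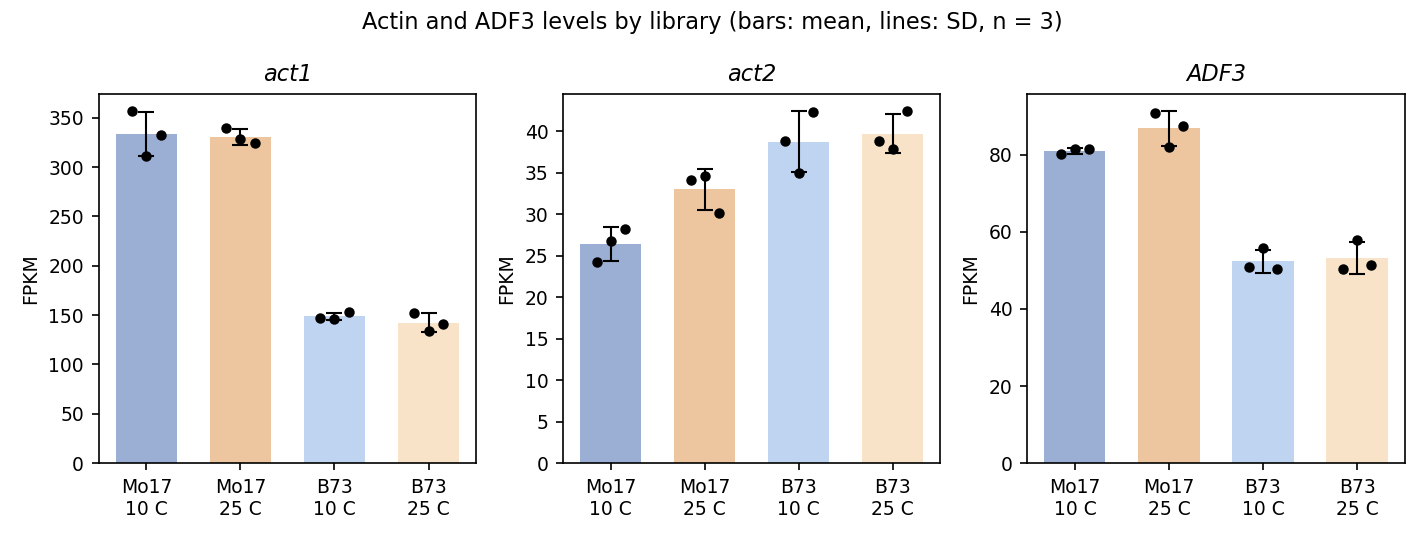
FPKM of act1, act2 and ADF3 (vertical axes, each from 0) in the 12 libraries, grouped by line and temperature. Points are libraries, bars are means of 3 and lines are SD. act1 and ADF3 stand higher in Mo17 and act2 lower, with act2 lowest in Mo17 at 10 °C, at a mean of 26.4 FPKM.

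Differences between the lines were common in the table, so the count of members alone says little. The symbols of all tested genes begin with the letter a. Shares and ranks among them describe this table and not all maize genes. At 10 °C all 3 members passed the threshold, 2 higher and 1 lower in Mo17, where 64.5% of the tested genes passed, 36.8% higher and 27.6% lower. At 25 °C all 3 passed, with the same split, where 61.8% of the tested genes passed, 36.8% higher and 25.0% lower. The libraries of the lines did not overlap for any of the 3 members, as for 60.5% of the tested genes at 10 °C and 69.7% at 25 °C. The median log2 difference over the 76 tested genes was 0.06 at 10 °C and 0.17 at 25 °C. Averaged over the temperatures, the log2 difference was 1.19 ± 0.05 for act1, -0.41 ± 0.08 for act2 and 0.67 ± 0.05 for ADF3 (SE), where 68.4% of the tested genes passed. Without the B73 library that stood apart, the differences at 10 °C were 1.16 for act1, -0.55 for act2 and 0.61 for ADF3, all of them called.

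The size of the line difference depended on the scaling of the libraries. With TMM factors, the median over the tested genes became -0.26 at 10 °C and -0.087 at 25 °C. At 10 °C they gave 0.84 for act1, -0.88 for act2 and 0.31 for ADF3. At 25 °C they gave 0.96 for act1, -0.53 for act2 and 0.44 for ADF3, and every one of these values passed the threshold. Such factors shift all genes of a library alike, so values relative to the median stay nearly the same by construction. Relative to it at 25 °C, with the depth recovered from the table, act1 was at 1.05, ADF3 at 0.54 and act2 at -0.44. Quantile normalization, which is no common shift, put act1 at 0.88, ADF3 at 0.65 and act2 at 0.18 relative to its own median.

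**Figure D2:**
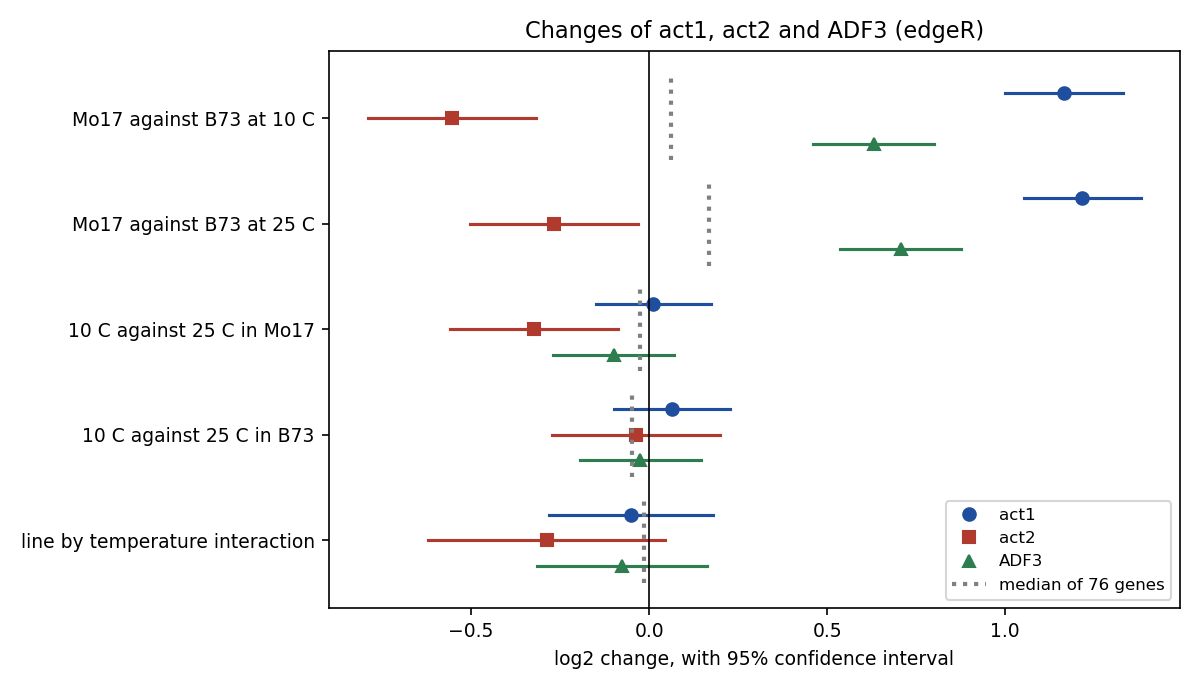
log2 changes of act1, act2 and ADF3 (horizontal axis) with 95% confidence intervals, for the line comparison at each temperature, the cold comparison in each line and their interaction. Dotted marks show the median of the 76 tested genes. The intervals of the line comparisons lie above 0 for act1 and ADF3 and below 0 for act2, and of the 6 cold intervals drawn, that of act2 in Mo17 leaves out 0.

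Between 10 °C and 25 °C none of the 3 members passed the threshold in Mo17, where 2.63% of the tested genes passed, or in B73, where 1.32% passed (edgeR quasi-likelihood test, Benjamini-Hochberg adjustment). At an unadjusted p under 0.05, 1 member, act2, was counted in Mo17, where 17 of the 76 tested genes were, and 0 in B73, where 8 of the 76 were. limma, DESeq2 and the other alternatives also called 0 members in either line. In Mo17, act1 averaged 333 ± 22.7 FPKM at 10 °C and 331 ± 8.10 FPKM at 25 °C (SD, n = 3 each). In B73 it averaged 149 ± 3.55 FPKM at 10 °C and 142 ± 9.63 FPKM at 25 °C. The 95% intervals of the fold change of act1 were 0.901 to 1.13 in Mo17 and 0.934 to 1.17 in B73.

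act2 had the largest cold value of the members. It averaged 26.4 ± 2.03 FPKM in Mo17 at 10 °C and 33.0 ± 2.44 FPKM in Mo17 at 25 °C, without overlap, and its log2 change was -0.32 with an interval of -0.56 to -0.09 (edgeR quasi-likelihood test, Benjamini-Hochberg adjusted p = 0.0906). The adjusted p ran from 0.0633 to 0.337 over the alternatives. In B73 it averaged 38.7 ± 3.69 FPKM at 10 °C and 39.7 ± 2.37 FPKM at 25 °C, and the libraries overlapped, with a log2 change of -0.04 and an interval of -0.27 to 0.20. ADF3 averaged 81.0 ± 0.751 FPKM in Mo17 at 10 °C and 86.8 ± 4.50 FPKM in Mo17 at 25 °C. Its libraries did not overlap, but by only 0.45 FPKM between the nearest ones, and its log2 change of -0.10 had an interval of -0.27 to 0.07. In B73 it averaged 52.3 ± 3.06 FPKM at 10 °C and 53.2 ± 4.04 FPKM at 25 °C, with overlap. Groups that do not overlap were thus seen for 2 members in Mo17 and for 0 in B73, where 27.6% and 13.2% of the tested genes had such groups. Averaged over the lines, where 10.5% of the tested genes passed, the log2 change was 0.04 ± 0.05 for act1, -0.18 ± 0.08 for act2 and -0.06 ± 0.05 for ADF3 (SE), and none passed (edgeR, smallest adjusted p of the 3 = 0.235). The 95% interval of act2 was -0.35 to -0.013.

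The interaction term of the model asked whether the cold value differed between the lines. Its log2 value was -0.29 for act2, with an interval of -0.62 to 0.05, -0.05 for act1, with an interval of -0.28 to 0.18, and -0.08 for ADF3, with an interval of -0.31 to 0.16. The adjusted p of act2 was 0.71 (edgeR quasi-likelihood test, Benjamini-Hochberg), and a difference between the lines in its cold value was not shown. Of all tested genes, 0 passed, which is 0%, with 6 at an unadjusted p under 0.05. limma and DESeq2 also called 0, and quantile normalization called 2, neither of them a member.

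The order of the 4 groups differed between the genes. For act1 the order from high to low was Mo17 at 10 °C, Mo17 at 25 °C, B73 at 10 °C and B73 at 25 °C, and the neighbours within a line overlapped. For ADF3 the Mo17 groups also came first, with 25 °C above 10 °C in each line, and the B73 groups overlapped. For act2 the order was B73 at 25 °C, B73 at 10 °C, Mo17 at 25 °C and Mo17 at 10 °C, and the B73 groups overlapped. The neighbours B73 at 10 °C and Mo17 at 25 °C were set apart by 0.37 FPKM between their nearest libraries.

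The balance of the actins was also taken within each library, where the ratio of FPKM values does not depend on library scaling. Its line difference combines those of act1 and act2 given above and is not separate evidence of them. The ratio of act1 to act2 was 14.7, 11.6 and 11.8 in Mo17 at 10 °C, against 3.79, 4.17 and 3.61 in B73 at 10 °C. It was 9.94, 9.48 and 10.7 in Mo17 at 25 °C, against 3.93, 3.52 and 3.32 in B73 at 25 °C. Every Mo17 library had more than double the ratio of every B73 library. Averaged over the temperatures, the ratio was 3.03-fold higher in Mo17, a log2 difference of 1.60 (exact permutation test of line labels within each temperature, 2-sided, p = 0.005, the smallest that 400 arrangements can give, adjusted over 4 ratio tests to 0.01). act1 made up 92.6 ± 0.876% of the summed FPKM of the actins in Mo17 at 10 °C and 79.4 ± 1.21% in B73 at 10 °C (SD, n = 3 each). At 25 °C its share was 90.9 ± 0.517% in Mo17 and 78.2 ± 1.44% in B73.

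The ratio of act1 to act2 was also higher at 10 °C, by a log2 difference of 0.22 averaged over the lines (exact permutation test of temperature labels within each line, 2-sided, p = 0.025, adjusted p = 0.0333). The difference was 0.33 in Mo17 and 0.10 in B73, and whether these differ was not tested. The averaged value combines the cold values of act1 (0.04) and act2 (-0.18) and is not separate evidence of them. Neither gene passed when averaged over the lines (edgeR, adjusted p = 0.726 for act1 and 0.235 for act2). Before adjustment, p was 0.0372 for act2 (edgeR). The p of the ratio was adjusted over the ratio tests only, and those of the genes over all tested genes. The call of the averaged ratio was lost without B73 25 °C replicate 2 (adjusted p = 0.06, exact), B73 25 °C replicate 3 (0.0733), Mo17 25 °C replicate 1 (0.06), Mo17 25 °C replicate 2 (0.0667), B73 10 °C replicate 2 (0.0733) or Mo17 10 °C replicate 1 (0.0533). Over the alternatives, the adjusted p of this exact test lay between 0.0133 and 0.0833.

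ADF3 was set against the summed FPKM of the actins in the same way. Differences of this ratio between libraries do not depend on the length used for ADF3. The lengths used for act1 and act2 do set their weights in the sum. The line difference of this ratio combines those of the members given above and is not separate evidence of them. The ratio was 0.210, 0.241 and 0.226 in Mo17 at 10 °C, against 0.273, 0.308 and 0.258 in B73 at 10 °C. It was 0.243, 0.226 and 0.247 in Mo17 at 25 °C, against 0.263, 0.337 and 0.281 in B73 at 25 °C. All Mo17 libraries lay below all B73 libraries. The sum is mostly act1, and against act2 alone the order was the other way. ADF3 to act2 averaged 3.08 ± 0.214 in Mo17 at 10 °C and 1.36 ± 0.210 in B73 at 10 °C, and 2.64 ± 0.267 in Mo17 at 25 °C and 1.35 ± 0.162 in B73 at 25 °C (SD, n = 3 each, not tested). For the sum, the log2 difference was -0.30 averaged over the temperatures, a 1.23-fold lower ratio in Mo17 (exact permutation test, 2-sided, p = 0.005, the smallest possible, adjusted p = 0.01). Between 10 °C and 25 °C the log2 difference was -0.07 and did not pass (exact permutation test, 2-sided, p = 0.31, adjusted p = 0.31).

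**Figure D3:**
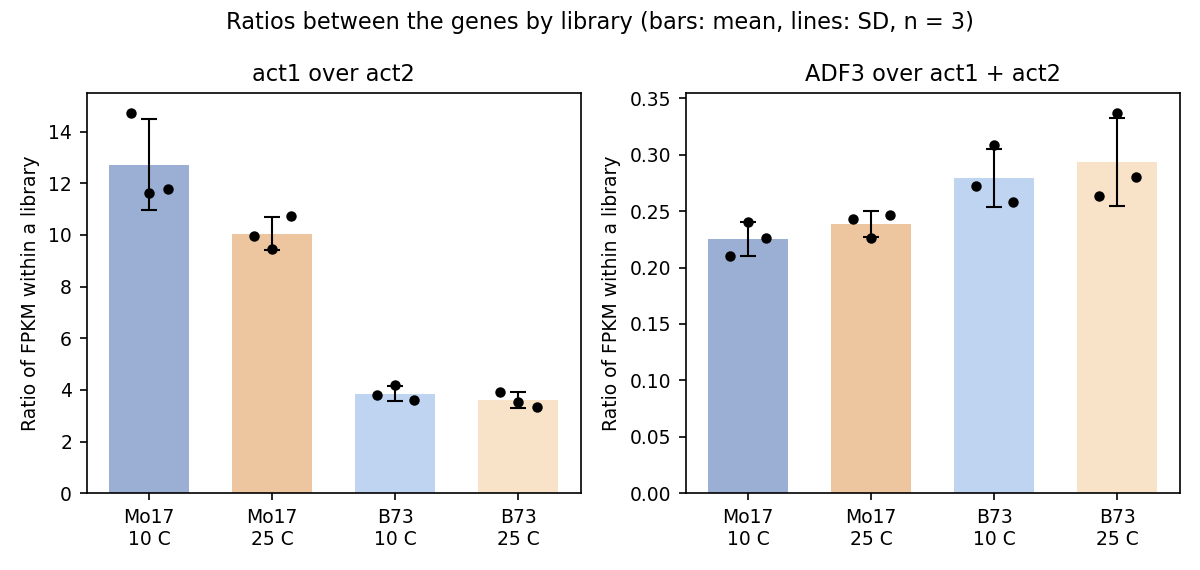
Ratio of act1 to act2 (left) and of ADF3 to the summed actins (right), computed from FPKM within each of the 12 libraries, with vertical axes from 0. Points are libraries, bars are means of 3 and lines are SD. The ratio of the actins is 9.48 or more in every Mo17 library and 4.17 or less in every B73 library, while the ADF3 ratio is lower in Mo17.

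The 3 genes varied little between replicates. The SD within groups, on the log2(FPKM + 1) scale, was 0.07 for act1, 0.08 for ADF3 and 0.11 for act2, which ranked 3, 5 and 13 from the smallest of the 76 tested genes, whose median was 0.19. Of the variation of act1 over the 12 libraries, 98.8% lay between the lines, the largest share of any tested gene. AI714808, the gene most like act1 (below), came next at 98.4%. For act1, temperature took 0.10%, the interaction 0.0535% and replicates 0.999%. For ADF3 the line took 95.5% and temperature 0.792%. For act2 the line took 66.1%, temperature 12.7%, the interaction 7.90% and replicates 13.3%. The median over the tested genes was 65.2% for the line and 3.68% for temperature.

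**Figure D4:**
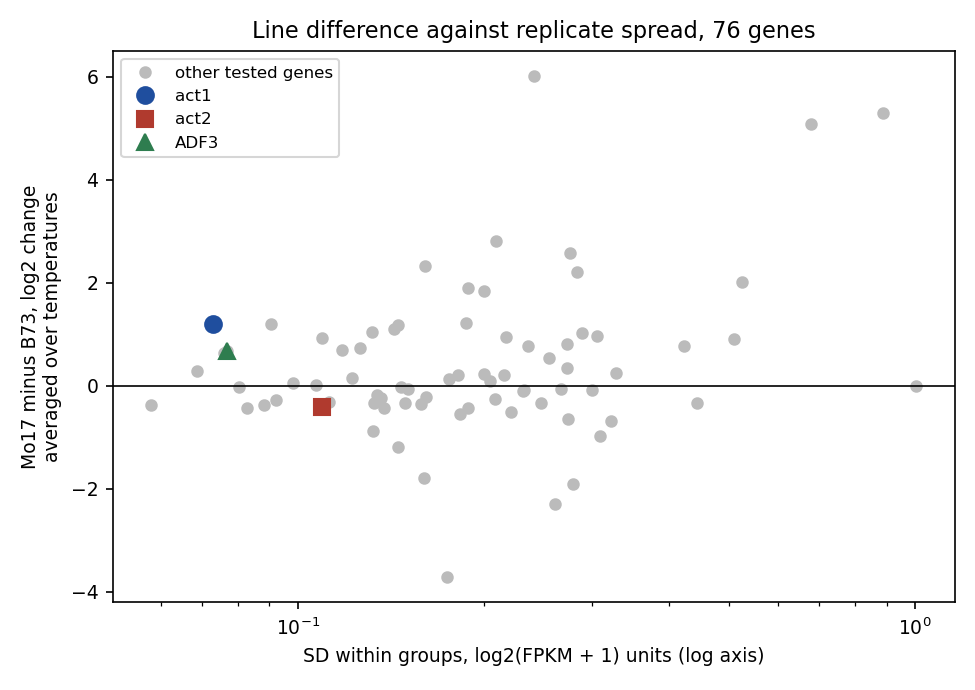
Difference between Mo17 and B73 averaged over the temperatures (log2, vertical axis) against the SD within groups (log2(FPKM + 1), horizontal log axis) for the 76 tested genes. act1, at 1.19, and ADF3, at 0.67, lie at the low end of the spread with clear line differences, and act2 lies below 0 at -0.41.

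The table holds 3 other genes tied to actin by symbol or annotation: adf1, adf2 and anx2, on chromosomes 7, 2 and 5. The other actin-depolymerizing factors of the table were at or near 0. adf1 was listed at 0 FPKM in 11 libraries and at 0.03 in Mo17 10 °C replicate 3, and adf2 did not exceed 0.15 FPKM in any library. Neither passed the filter, and ADF3 was thus the 1 actin-depolymerizing factor of the table with more than traces of reads. anx2 encodes an annexin, a protein of a family that binds membrane phospholipids in the presence of calcium and of which some plant members bind actin filaments. It had 10.63, 30.64 and 19.56 FPKM in Mo17 at 10 °C, against 9.40, 4.44 and 4.14 FPKM in B73 at 10 °C. At 25 °C it had 17.45, 24.91 and 31.16 FPKM in Mo17, against 4.87, 6.55 and 3.98 FPKM in B73. The lines did not overlap at either temperature, and the libraries of a group varied far more than for the members. At 10 °C the nearest were Mo17 replicate 1 at 10.63 FPKM and B73 replicate 1, the library that stood apart, at 9.40 FPKM. anx2 was higher in Mo17 at a log2 change of 1.76 ± 0.42 at 10 °C and 2.25 ± 0.43 at 25 °C (SE, edgeR quasi-likelihood test, Benjamini-Hochberg adjusted p = 0.00416 and 0.000778). With each library left out in turn, its value at 10 °C ran from 1.33 to 2.24, the highest without that B73 library. Of these 3 genes only anx2 was tested. It passed in the line comparisons, where 64.5% of the tested genes passed at 10 °C and 61.8% at 25 °C. With temperature it did not pass, where 2.63% passed in Mo17 and 1.32% in B73.

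The genes most like each member were found by the root mean square difference between log2(FPKM + 1) profiles over the 12 libraries, each centred on its own mean. This is a description over libraries that share line and temperature. Nearest to act1 was AI714808, annotated as a protein phosphatase methylesterase, at a difference of 0.09, followed by AR3 at 0.15 and the auxin-binding protein gene abp1 at 0.16. AI714808 averaged 156 ± 7.95 FPKM in Mo17 at 10 °C, 155 ± 1.95 in Mo17 at 25 °C, 67.6 ± 7.30 in B73 at 10 °C and 68.4 ± 2.26 in B73 at 25 °C (SD, n = 3 each). Nearest to ADF3 were AI665421 at 0.12, aprl5 at 0.13 and the ADP-glucose pyrophosphorylase large subunit gene AGPLS3 at 0.18. Nearest to act2 were ALF6, annotated as a PHD finger protein, at 0.15, and aprl8 and aprl4, both at 0.16. Among the 75 other tested genes, ADF3 was number 10 in likeness to act1, at 0.29, while act2 was number 55, at 0.81. The median difference from act1 was 0.66.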

How the data were processed

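Per the labels' protocols, polyadenylated RNA was read in pairs from strand-marked libraries. The submitters' processing notes list StringTie 1.3.4d, HISAT2 2.0.4, cutadapt 1.9, DESeq2 and edgeR, with no role or order, and 1 build for both lines, B73 RefGen_v4. The effect of sequence differences of Mo17 from that build was not tested, and the sources used here do not say whether strand was used in counting. For every gene, the deposited table holds a count and an FPKM per library, both made by the authors. No deposited count is 1 or 2 and the smallest above 0 is 3, so 1 fragment may be worth several counts, and no counting intervals are given. Absolute depth is unknown.

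Relative depth was the median of count over FPKM across 48 genes that reached 5 FPKM in every library, where the largest deviation was 0.374%. Genes that reached 1 FPKM in 3 or more libraries were tested. edgeR 4.0.16 (R 4.3.3) was fitted to the counts with library sizes proportional to that depth, without TMM factors, as 4 group means over 12 libraries, with 2-sided p adjusted by Benjamini-Hochberg over 76 genes and a threshold of 0.05. Standard errors are the log2 change without a prior count over the square root of F. Log2 ratios of FPKM were tested by exact permutation. The p-values measure the spread between libraries labelled as biological repeats. The procedures were checked on simulated data. For edgeR, changes were planted in a minority of the genes and the depth was known, so the check does not cover the choice of scaling. Alternatives used limma 3.58.1, DESeq2 1.42.0, other scalings, filters and pseudocounts, a replicate block and each library left out. Members, lists and tests were chosen with earlier results of these data known. Besides the members, the text names genes tied to actin by symbol or annotation and the 3 genes most like each member. Chromosome numbers come from a RefSeq gene table of a later assembly, matched by transcript, or by synonym for ADF3.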

Additional observations from a re-analysis of the deposited data

How the results depend on the processing

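Quantile normalization gave act2 a line difference of 0.090 at 25 °C, -0.28 at 10 °C and -0.093 averaged over temperatures, none of them called. It turned the cold value of ADF3 in Mo17 to 0.071, that of act1 in B73 to -0.0097 and the interactions of act1 and ADF3 to 0.15 and 0.021. The act2 call at 25 °C was also lost at -0.27 without a filter and with the 6 libraries compared alone, and at -0.26 with the replicate block. The cold values in B73 were near 0 and turned positive under TMM factors (act2 0.033, ADF3 0.041), median-ratio factors (0.037, 0.051), quantile normalization (0.14, 0.050) and DESeq2 (0.037, 0.051). Averaged over lines, ADF3 gave 0.014 with median-ratio factors and with DESeq2, and 0.060 with quantile normalization, and anx2 gave 0.013 with TMM factors, 0.047 with median-ratio factors and 0.046 with DESeq2. The cause was not tested.

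With each library left out in turn, the act2 line difference at 25 °C ran from -0.30 to -0.21. The cold values ran from -0.039 to 0.059 (act1 in Mo17), -0.10 to 0.032 (act2 in B73), -0.074 to 0.040 (ADF3 in B73), -0.70 to 0.035 (anx2 in Mo17), -0.26 to 0.44 (anx2 in B73) and -0.26 to 0.13 (anx2 over both lines), and the cold ratio of act1 to act2 from 0.16 to 0.25.

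Same-numbered libraries correlated at -0.435 to 0.444 in their deviations from group means, 2 of 12 best with their own number. Pairing by number was thus not seen, but with 3 libraries a group this check cannot exclude it. With sign flips over same-numbered libraries as a replicate block, the ratio differences were 1.60 and -0.30 between lines (exact p = 0.0312, the smallest these flips can give, adjusted 0.0625) and 0.22 between temperatures (adjusted p = 0.0833, exact), none of them called. In all, 468 of the alternative values of the members and ratios kept direction and call, 23 lost the call and 22 changed sign. The 468 include fits without a library outside the comparison, which could hardly move the value. Genes called between lines numbered 35 to 60, and with temperature 0 to 5 in Mo17 (2 in the report), 0 to 3 in B73 (1) and 4 to 10 averaged over lines (8). With 3 libraries a group, a change that did not pass the threshold is not shown to be absent, and the intervals give its uncertainty.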

Other observations

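Actin genes are widely used as internal standards for transcript levels. Taking each gene in turn as the scale, the log2 difference between Mo17 and B73 was recomputed for the other tested genes, as an arithmetic shift with no test. Scaled to recovered depth, 42 of 76 genes were higher in Mo17 at 25 °C. Scaled to act1, 12 of 75 were higher in Mo17 and the median log2 difference was -1.08. Scaled to act2, 54 of 75 were higher, with a median of 0.47, and scaled to ADF3, 26 of 75 were higher, with a median of -0.57. At 10 °C the numbers higher in Mo17 were 12, 62 and 24 of 75 when scaled to act1, act2 and ADF3, against 41 of 76 by depth. Between 10 °C and 25 °C the median log2 difference in Mo17 was -0.037 scaled to act1, 0.30 scaled to act2 and 0.075 scaled to ADF3, against -0.025 by depth. In B73 it was -0.11 scaled to act1, -0.013 scaled to act2 and -0.024 scaled to ADF3, against -0.048 by depth.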
